A study of Mus musculus with 47 samples.

Results

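The genes for the proteins of the cytosolic ribosome were followed across 17 populations of blood-forming and immune cells from mouse bone marrow. A gene was a member if its symbol, the only one in the platform's annotation of a probe set, was Rpl or Rps followed by a digit, or was Rplp0, Rplp1, Rplp2 or Rpsa. Kinases of ribosomal protein S6, mitochondrial ribosomal proteins and pseudogene symbols were left out. This gave 50 of the 18194 genes with a symbol of their own. Of these, 22 encode proteins of the large subunit, 21 encode proteins of the small subunit, and 6 are paralogs of other ribosomal protein genes (Rpl22l1, Rpl7l1, Rpl3l, Rpl39l, Rps27l and Rps4l). The remaining member, Rps19bp1, fits the rule by its name but encodes a protein that binds Rps19. A further 31 symbols of the family, among them Rpl3, Rpl5, Rpl10 and Rplp1, lie only on probe sets that the annotation gives to several genes and are not described.

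Each of the 47 samples was RNA of 2000 sorted bone marrow cells from adult C57Bl6 mice, amplified and hybridised to 1 Affymetrix mouse array. All groups are of this strain, and the labels give no treatment, sex, sorting markers or animals per sample. Stem cells were the groups LTHSC and STHSC, with 2 arrays each. Multipotent or early progenitors were LMPP (5 arrays), MkE (4) and, on the lymphoid side, CLP (2) and ETP (3). The red cell series was PreCFUE, CFUE and ProE, with 3 arrays each, and MkP (3) is the megakaryocyte progenitor. GMP (3) and GM (2) are granulocyte and macrophage progenitors. Lymphocytes were ProB (2), PreB (4) and IgM+SP (2) of the B lineage, CD4 (2) and NKmature (2). The labels spell out none of these names, and the readings given here follow common use. Arrays of a group are called biological replicates, with no animals or pools named, so p-values measure only the spread between these arrays.

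The ribosome joins amino acids into proteins. Its large and small subunits are built in the nucleolus from ribosomal RNA and ribosomal proteins. Messages of many ribosomal protein genes start with a tract of pyrimidines, the 5′ terminal oligopyrimidine or TOP tract, through which growth signals set their translation. Dividing blood progenitors make many ribosomes. Loss of 1 copy of certain ribosomal protein genes causes Diamond-Blackfan anaemia, a failure of red cell production, and loss of RPS14 is a cause of the anaemia of the 5q- syndrome.

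Levels are log2 of the deposited intensity, from the brightest probe set of each gene, and differ by probe as well as by gene, so genes are not ranked against each other by level. Of the 50 members, 48 passed the filter that asked for a mean over 3.889, the median of all values, in at least 1 group. Rps16 had group means of 2.63 to 2.99 and Rpl39l of 2.72 to 3.66, and neither was tested. The brightest members lay close to the top of the scale, where the highest value of an array was 14.23 to 14.54. Over all arrays the mean level was 13.59 for Rps7, 13.49 for Rps4x and 13.47 for Rpsa. Whether differences are compressed there was not tested. A gene was called where the p of limma's moderated test, adjusted by the Benjamini-Hochberg method over the 13949 genes tested, was under 0.05.

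Several features of the arrays move with the levels given here. Control probe sets at the 3′ and the 5′ end of the beta-actin message give a ratio that grows as amplified RNA gets shorter. The log2 of this ratio ran from 1.04 to 4.87 on 35 arrays and from 5.14 to 6.54 on the other 12, which were all arrays of GMP, CLP, ETP and IgM+SP and replicates 3 and 4 of PreB. Both CLP arrays had a median intensity of 16.9, the upper end of the range over arrays (13.8 to 16.9), and the lowest upper quartiles, 50.2 and 50.7 in a range up to 75.7. Sex-linked transcripts divided the arrays too: 21 had Xist without the Y-linked Eif2s3y, 19 had Eif2s3y without Xist and 7 had both. In 3 of 14 comparisons all arrays were of 1 such class, in 6 the groups had some class in common, and in the other 5 they had none, so that group and class cannot be told apart there. Only PreB holds arrays with Xist alone and arrays with Eif2s3y alone. A fit with class as a block therefore takes the step between these classes from the 4 PreB arrays, whose beta-actin ratios also differ by pair, and its counts carry that PreB difference over. The arrays labelled ProB had 5 of 6 early B cell markers above it, but Ebf1 (5.70) and Rag1 (4.74) were far below their levels in PreB (11.57 and 11.15). Pax5 was 3.82 there and 5.44 in PreB, while Vpreb1 (8.11 and 9.96), Igll1 (7.43 and 8.88) and Ighm (12.56 and 13.97) were present in both. The arrays labelled ProB were also high in Siglech (11.42) and Bst2 (11.40) of plasmacytoid dendritic cells and in Klrd1 (11.60) and Gzma (11.55) of natural killer cells. No comparison below uses the arrays labelled ProB as a side.

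Promoters of 44 of the 50 members were in a RefSeq table of the bases around annotated transcription starts. The strand of the gene was searched for a C at the annotated start followed by at least 4 more C or T, the form of a TOP tract. It was found in 8 of the 44 (18.2%) and in 3.01% of all 27025 genes of the table. A run of at least 8 C or T within 20 bases of the start, which can include the first pattern, was found in 20 of the 44 (45.5%), against 18.4% of all genes. Of 69 genes for mitochondrial ribosomal proteins, 0 had the tract at the start. Annotated starts need not be the start used in these cells, and a missing match says only that the letters are not at that position. The 8 windows with the tract are shown with those of Rplp0 and Rps15, members that lack it and that varied widely among the groups. Each runs from 15 bases before the annotated start to 15 from it on, in GRCm38.p6, and capitals mark the tract.
Rpl14 (chr9:120571502-120571531, plus strand): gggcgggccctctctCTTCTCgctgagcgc
Rpl35 (chr2:39005117-39005146, minus strand): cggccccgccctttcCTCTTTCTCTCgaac
Rpl38 (chr11:114668565-114668594, plus strand): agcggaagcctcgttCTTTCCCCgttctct
Rplp2 (chr7:141447636-141447665, plus strand): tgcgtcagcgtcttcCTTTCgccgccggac
Rps6 (chr4:86857353-86857382, minus strand): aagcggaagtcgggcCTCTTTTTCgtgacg
Rps10 (chr17:27635230-27635259, minus strand): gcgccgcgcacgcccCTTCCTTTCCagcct
Rps18 (chr17:33955651-33955680, minus strand): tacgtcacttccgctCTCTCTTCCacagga
Rps27 (chr3:90213634-90213663, minus strand): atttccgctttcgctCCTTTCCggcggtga
Rplp0 (chr5:115559452-115559481, plus strand): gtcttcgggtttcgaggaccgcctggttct
Rps15 (chr10:80292416-80292445, plus strand): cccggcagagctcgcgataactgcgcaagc
The tract was from 5 bases (Rplp2) to 11 bases (Rpl35) long. Of the tested members, 5 of 8 with the tract at the start and 21 of 34 without it were lower in MkP than in MkE, where 20.8% of all genes were lower. From LMPP to CLP these counts were 6 of 8 and 23 of 34, where 27.4% of all genes were lower.

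The median level of the 48 members was highest in CD4 and lowest in CLP. On the deposited scale it was 12.96 ± 0.03 (SD, n = 2) in CD4, 12.82 in LTHSC, 12.75 ± 0.03 in GM, 12.73 ± 0.08 in MkE and 12.73 ± 0.09 in CFUE. It was 12.68 ± 0.05 in STHSC, 12.63 ± 0.20 in PreCFUE, 12.56 ± 0.02 in NKmature, 12.48 ± 0.03 in ProB and 12.47 ± 0.39 in LMPP. Lower medians were those of ProE at 12.32 ± 0.05, PreB at 12.19 ± 0.41, MkP at 12.12 ± 0.21, ETP at 12.03 ± 0.06, GMP at 11.99 ± 0.07, IgM+SP at 11.93 ± 0.10 and CLP at 11.44 ± 0.03. Each step between neighbours in this order was smaller than 0.21, the SD pooled within groups, except the last step, from IgM+SP to CLP. After quantile normalization the span from the highest to the lowest group shrank from 1.52 to 0.81. CLP was then at 11.92 ± 0.04, beside GMP at 11.93 ± 0.07 and IgM+SP at 11.94 ± 0.09, and CD4 remained highest at 12.72 ± 0.06. Because the normalized values give no amount per cell, less ribosomal protein RNA per cell and a larger share of other RNA cannot be told apart.

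**Figure D1:**
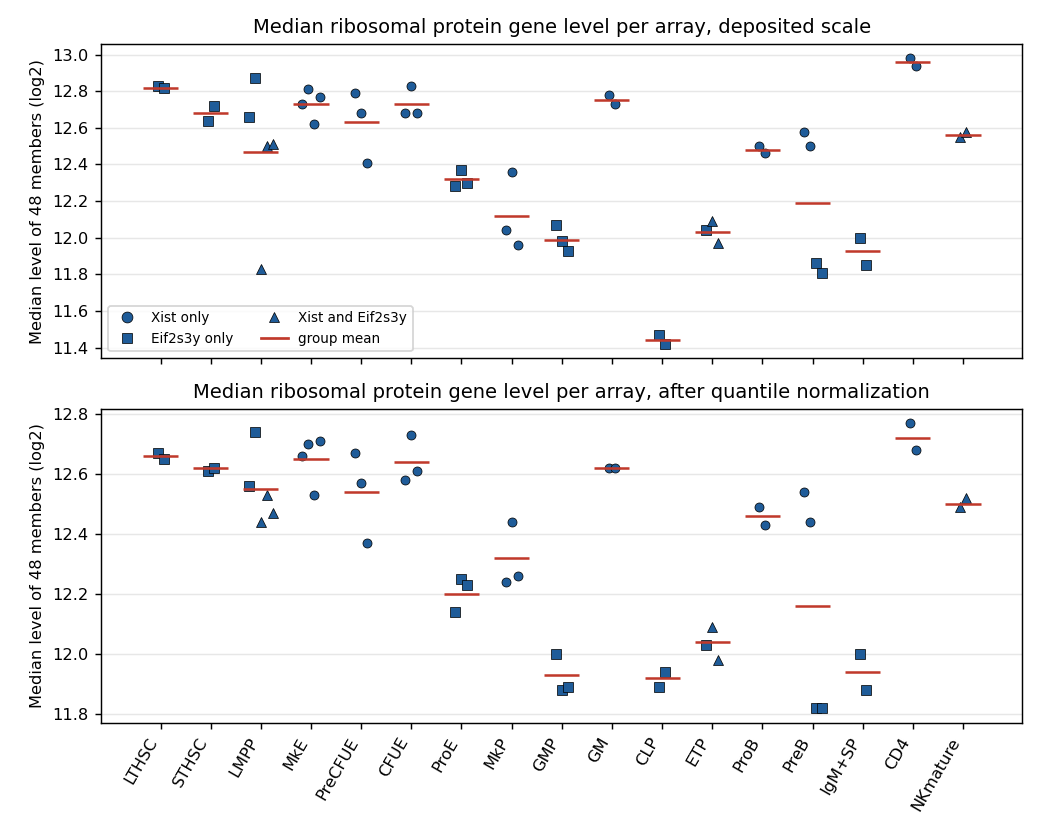
Median log2 level of the 48 tested ribosomal protein genes on each of the 47 arrays, by group, on the deposited scale (upper panel) and after quantile normalization (lower panel). Red bars are group means and marker shapes give the Xist and Eif2s3y class. The CLP arrays stand below all others in the upper panel but not in the lower one, and the PreB arrays fall into an upper and a lower pair in both.

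Within PreB the 4 arrays formed pairs. The member median was 12.58 and 12.50 in replicates 1 and 2, which carry Xist only, and 11.86 and 11.81 in replicates 3 and 4, which carry Eif2s3y only. In the latter pair 31 members were lower without overlap, against 37.4% of all genes tested, and 9 were higher, against 27.7%. The median member difference was -0.48 (-0.31 after quantile normalization), against -0.06 over all genes. Rps4l, at 3.07 and 2.80 in the latter pair and so below the filter level, differed by -2.89, Rps15 by -2.48 and Rplp0 by -1.95, while Rpl27a differed by 3.17. The beta-actin ratio was 1.59 and 2.41 in the first pair and 6.11 and 5.26 in the other. LMPP replicate 3 also stood apart, with a member median of 11.83 where the other 4 LMPP arrays had 12.50 to 12.87. After quantile normalization its median was 12.44, against 12.47 to 12.74.

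Low member levels went with a high 3′ to 5′ ratio of beta-actin. After quantile normalization the 12 arrays with a ratio over 5 had member medians of 11.82 to 12.09, and the other 35 arrays had 12.14 to 12.77, without overlap. On the deposited scale the ranges were 11.42 to 12.09 and 11.83 to 12.98. The ratio has no wide gap at the cut of 5, with 4.87 and 5.14 as the nearest values. Over the 17 group means the member median had a correlation of -0.80 with the ratio, and of -0.86 after quantile normalization. Over deviations of the 47 arrays from their group means it was -0.69 and -0.81, and -0.46 on both scales without PreB. As a description, the correlation of the quantile normalized median with the ratio was also taken on each side of the cut. It was -0.43 over the 35 arrays and 0.29 over the 12, and on the deposited scale -0.50 and 0.80. Arrays of a group are not independent points, and within the 12 the sign was thus the opposite of that between the sets. Across the 17 group means, 22 members had a correlation with the ratio below -0.5 and 3 had one over 0.5 (Rps25, Rpl27a and Rps20). The share of all genes past these cuts was not taken, so these counts do not set the members apart from other genes. The part of RNA length in the levels was not tested further than by fits that hold this ratio as a covariate, an alternative chosen after seeing the data and given with the comparisons it touches.

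**Figure D2:**
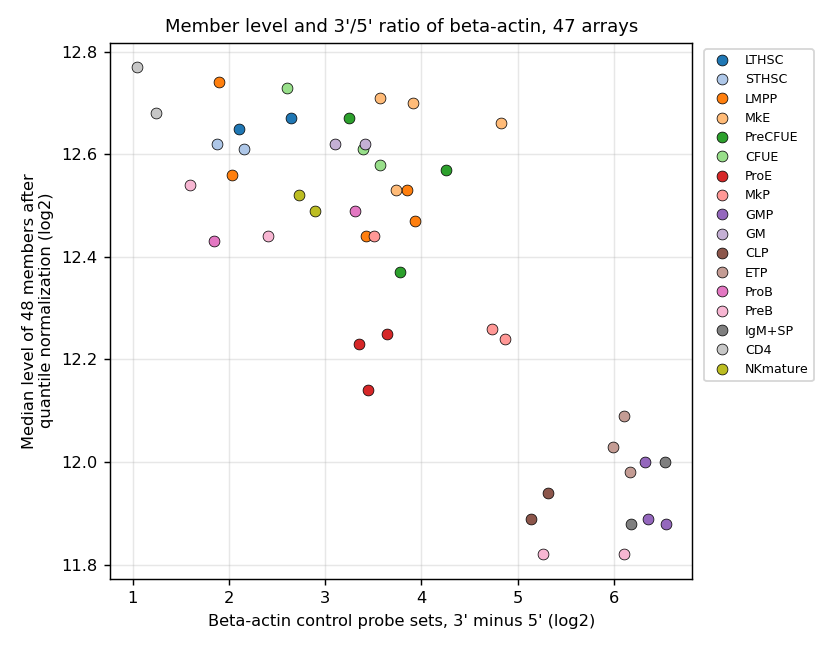
Median log2 level of the 48 members after quantile normalization against the log2 ratio of the 3′ to the 5′ beta-actin control probe sets, 1 point per array, coloured by group. The 12 arrays with a ratio over 5 lie between 11.82 and 12.09, below the other 35.

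Among the 17 groups 46 of the 48 members differed by limma's moderated F-test, where 90.3% of all genes tested did. The exceptions were Rps28 (adjusted p = 0.0922) and Rps29 (0.05), both small subunit proteins. The range between the highest and the lowest group mean had a median of 1.69 over the members (1.31 after quantile normalization) and of 2.11 over all genes tested. It was over 2-fold for 37 members and over 4-fold for 16. Of all genes tested 84.6% were over 2-fold, and their median range of 2.11 was itself over 4-fold. CLP was the lowest group for 26 members, but after quantile normalization for 8, when IgM+SP was lowest for 13. CD4 was the highest group for 12 members on the deposited scale and for 9 after quantile normalization. The shares of all genes that were lowest or highest in these groups were not taken.

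**Figure D3:**
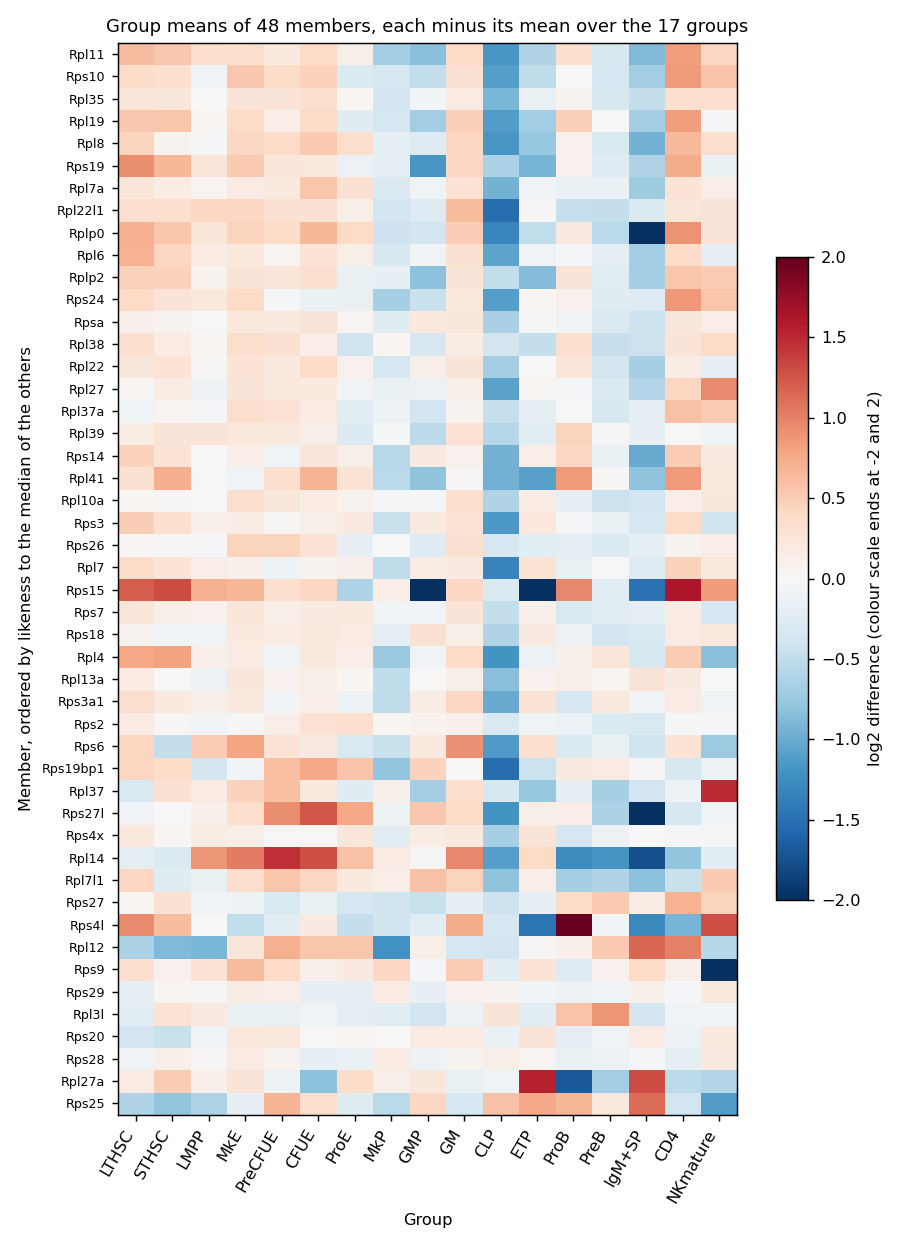
Group means of the 48 members, each as a log2 difference from its own mean over the 17 groups, red for higher and blue for lower. Members are ordered from those most like the median of the others (Rpl11 at the top) to those least like it (Rps25 at the bottom), and the CLP column is blue for most of the upper rows.

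Of the small subunit, Rps15, a protein of the head of that subunit, had the widest range of all members. Its level was 7.91, 7.74 and 7.73 on the GMP arrays and 8.52, 9.21 and 8.11 on the ETP arrays. It was 9.82 and 9.59 in IgM+SP, and 12.84 and 12.75 in CD4. LTHSC had 12.58 and 12.20, STHSC had 12.40 and 12.56, and the 4 PreB arrays had 12.39, 12.01, 9.44 and 10.02. So GMP and ETP were low on every array, without overlap with any other group. The span of its group means was 5.00 (4.87 after quantile normalization; F-test adjusted p = 4.85e-11). Its 2 probe sets had like differences of GMP from LMPP, -4.10 and -3.63.

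Rps19, the member most often mutated in Diamond-Blackfan anaemia, ran the same way over a smaller span. It was 12.85 and 12.69 in LTHSC, 12.60 and 12.55 in CD4, 10.80, 10.65 and 10.55 in GMP and 10.84, 11.12 and 10.73 in ETP. The red cell series had intermediate levels: PreCFUE 12.20, 12.14 and 11.87, CFUE 12.01, 12.03 and 12.09, and ProE 11.69, 11.66 and 11.80. Its range was 2.11 (adjusted p of the F-test 1.23e-08).

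Rps9, which binds ribosomal RNA early in assembly, was level on its brightest probe set except in NKmature, with 7.66 and 9.78 there and group means of 11.75 to 12.63 elsewhere. The probe sets did not share this. Another set of Rps9 had a mean of 11.79 in NKmature. Over its 3 probe sets the difference of NKmature from CLP ran from -3.05 to 2.43, so no direction is given for the gene. Rps10 showed the size of such differences within a gene: over 6 probe sets the difference of GMP from LMPP ran from -2.88 to 0.63.

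**Figure D4:**
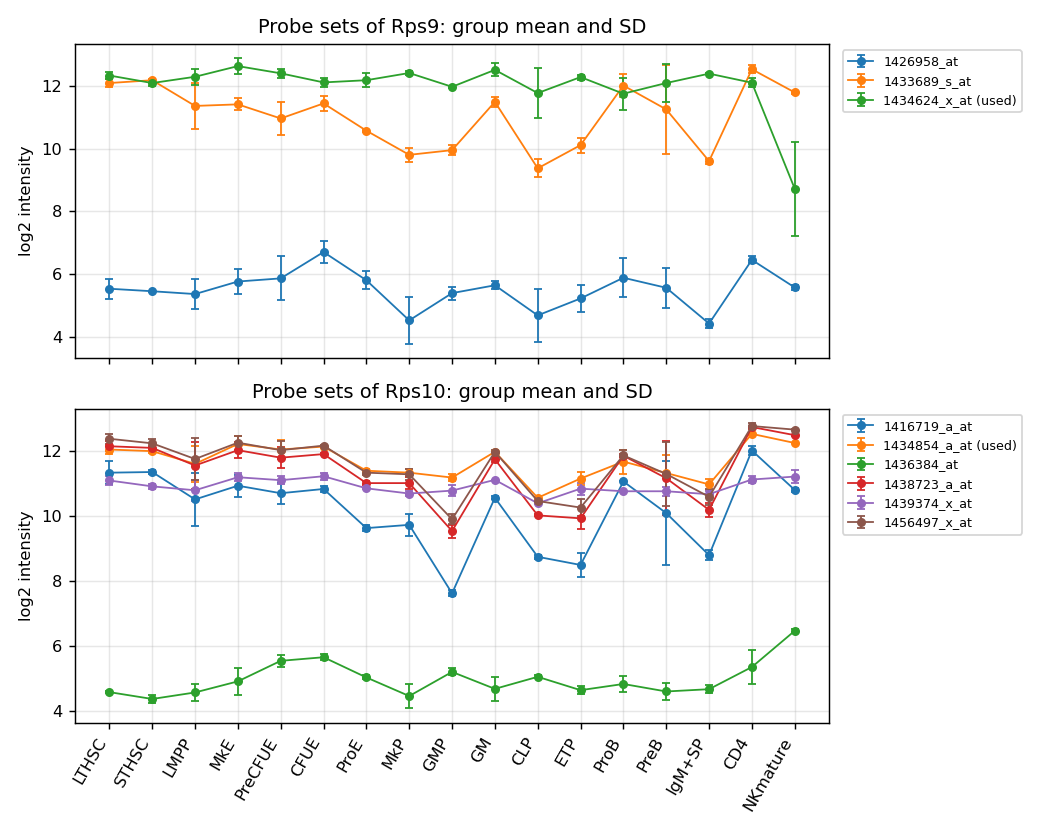
Group means with SD (log2 intensity) of the 3 probe sets of Rps9 and the 6 of Rps10 in the 17 groups. The set used for Rps9 falls in NKmature, to 8.72, where another set stays at 11.79. The sets of Rps10 differ in size and direction from LMPP to GMP, from -2.88 to 0.63.

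Rps6, the target of S6 kinase and a gene with the tract shown above, was 9.31 and 9.48 in LTHSC and 8.36 and 8.62 in STHSC, and on the LMPP arrays it was 8.93, 8.93, 9.42, 10.05 and 10.04. LMPP replicates 4 and 5 were thus the high ones of their group, as they were for Rpl14 of the large subunit, at 10.50 and 10.42 against 8.98, 8.78 and 8.57. Both have Xist and Eif2s3y, as does replicate 3. Rps25 was the member least like the others, with a correlation of -0.54 over the 17 group means with the median of the other members. It was 9.98 and 9.71 in IgM+SP and 7.69 and 7.52 in NKmature.

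Of the large subunit, Rpl14 had the widest range, 3.23. It was high in the red cell progenitors, at 10.16, 10.17 and 9.80 in PreCFUE and 9.96, 9.71 and 9.94 in CFUE. It was low in IgM+SP at 6.80 and 6.83 and in PreB at 7.49, 7.41, 7.26 and 7.43. The 4 PreB arrays did not divide for this gene. Rpl27a was 10.80, 10.48 and 10.46 in ETP, where it was highest, 6.16 and 7.42 on the first PreB pair and 9.53 and 10.38 on the other pair. Rpl12, which sits at the base of the stalk, was 5.76, 5.78 and 6.23 in MkP, and 8.30 and 8.25 in IgM+SP. In LTHSC its arrays were far apart, at 5.50 and 7.47.

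The P stalk of the large subunit recruits the translation factors that hydrolyse GTP, and the members Rplp0 and Rplp2 were measured. Rplp0 was 13.31 and 13.48 in CD4, 13.09 and 13.33 in LTHSC, 10.46 and 10.38 in IgM+SP and 10.99 and 11.42 in CLP. Its range was 2.98, and PreB again divided, into 12.99 and 12.88 against 10.89 and 11.08. Rplp2 was 13.67 and 13.62 in CD4, and 12.11, 12.25 and 12.30 in ETP. Rpl11, which with Rpl5 and 5S RNA forms the particle that can bind Mdm2 when assembly fails, was 12.57 and 12.63 in CD4 and 10.45 and 10.73 in CLP. Its group means followed the median of the other members most closely, with Rps10, at a correlation of 0.96 each.

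Of the 6 paralogs 5 were tested. Rpl22l1, the copy of Rpl22, was 9.57 and 9.02 in CLP and 11.66 and 11.24 in GM. Rpl22 itself was 12.43 and 12.23 in CLP, and 13.28 and 13.25 in GM. Rps27l, a p53 target related to Rps27, was highest in CFUE, with 3 arrays between 9.78 and 10.11, and lowest in IgM+SP at 6.85 and 6.31, with a range of 3.38. Its PreB arrays had 8.64 and 8.88 in the first pair and 7.22 and 7.61 in the other. Rps4l, a copy of the X-linked Rps4x, was dim, with group means of 2.97 to 6.55. It was 2.90, 3.05 and 2.95 in ETP, 6.24 and 5.41 on the first PreB pair, 5.68 and 5.76 in NKmature and 6.59 and 6.52 on the arrays labelled ProB. Rpl7l1 ranged from 7.70 in IgM+SP to 9.11 in GMP, and Rpl3l, the copy of Rpl3 found in muscle, was dim everywhere, with group means of 2.76 to 4.03.

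In the comparisons below, alternative fits are given without the share of all genes called, except some with the beta-actin ratio. Their counts alone do not show whether members moved more than other genes. Of the 14 comparisons of neighbouring populations, the first set concerns stem cells. STHSC had 0 members higher and 1 lower than LTHSC, where 2.77% of all genes were higher and 6.66% lower. That member was Rps6, with a difference of -0.91 ± 0.29 (SE; adjusted p = 0.0418), and its call ended when any 1 of the 4 arrays was left out. LMPP had 2 members higher and 1 lower than STHSC, against 6.49% and 2.83% of all genes. Rps6 was higher by 0.98 ± 0.24 (adjusted p = 0.00677) and Rpl14 by 1.17 ± 0.36 (0.0306), and Rps19bp1 was lower, at -0.73 ± 0.24 (0.0432). Without STHSC replicate 1 the counts were 0 and 0. The number higher was 1 without STHSC replicate 2, LMPP replicate 4 or LMPP replicate 5, and the number lower was 0 without LMPP replicate 3, 4 or 5. On the mean of its 2 probe sets Rps6 was not called in either comparison (-0.46 and 0.46), but its other set was dim, with group means of 2.61 to 4.12. MkE had 3 members higher and 1 lower than LTHSC, against 14.8% and 15.8%. They were Rpl14 (1.22 ± 0.37, adjusted p = 0.00959), Rpl37 (0.77 ± 0.24, 0.0133) and Rps20 (0.60 ± 0.17, 0.00492), and Rps4l was called lower (-1.44 ± 0.55, 0.045), with a mean of 3.94 in MkE, near the filter level. The calls of Rpl37 and Rps20 ended without LTHSC replicate 2, that of Rpl37 also ended without MkE replicate 1, that of Rpl14 ended without LTHSC replicate 1, and that of Rps4l ended without any of 5 of the 6 arrays, MkE replicate 3 being the exception. These groups share no Xist and Eif2s3y class, and with class as a block, which rests on the PreB pairs, 6 members were higher and 18 lower.

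MkP had 29 members lower and 0 higher than MkE, where 20.8% of all genes were lower and 11.2% higher. The median member difference was -0.46, against -0.08 over all genes, and 3 members fell by over 2-fold. Both groups are of the Xist class, and their mean beta-actin ratios were 4.37 and 4.01. Rpl12 was 5.76, 5.78 and 6.23 in MkP and 7.41, 7.38, 7.61 and 7.09 in MkE, which is a difference of -1.45 ± 0.33 (adjusted p = 0.00113). Rps6 was 8.63, 8.44 and 8.50 against 9.84, 9.89, 9.39 and 9.90, which is -1.23 ± 0.22 (6.44e-05). Rps24, a further Diamond-Blackfan anaemia gene, was 11.34, 11.51 and 11.32 against 12.53, 12.60, 12.11 and 12.53, which is -1.05 ± 0.19 (7.31e-05). All arrays of MkP were below all arrays of MkE for these 3 genes, and none of the single-array omissions ended their calls. The probe sets of Rps6 and Rps24 disagreed in sign, from -1.23 to 0.38 over 2 sets and from -1.31 to 0.61 over 6. The Rps6 set that was higher in MkP was dim (2.74 in MkE and 3.13 in MkP), as was that of Rps24 (4.71 and 5.32).

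The fall covered 16 of 25 members of the large subunit and 12 of 22 of the small subunit, paralogs included. Of the 11 measured genes of Diamond-Blackfan anaemia or the 5q- syndrome it covered 8. Other messages of the translation machinery fell as well: 13 of 19 other TOP messages, such as Eef1b2 (-0.69 ± 0.14, adjusted p = 0.000285) and Tpt1 (-0.72 ± 0.15, 0.000408), and 16 of 34 ribosome biogenesis genes, such as Wdr12 (-1.56 ± 0.20, 1.08e-07). Of 76 mitochondrial ribosomal protein genes 30 fell. The count of members lower was 29 with the beta-actin ratio as a covariate and 32 with arrays centred on their medians. It was 9 after quantile normalization, when the median member difference was -0.23, against 0.05 over all genes. It was 13 without MkP replicate 3 and 19 without MkP replicate 1, and 0 members rose in each of these fits.

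In the red cell series few members were called. CFUE had 2 members higher and 3 lower than MkE, where 16.3% of all genes were higher and 13.5% lower, and the median member difference was -0.02. Both groups are of the Xist class. Rps27l was between 9.78 and 10.11 on the 3 CFUE arrays and 9.32, 9.32, 8.71 and 8.92 in MkE, a difference of 0.90 ± 0.24 (adjusted p = 0.00419). Rps19bp1 rose by 0.80 ± 0.22 (0.00369). Rps6 fell (-0.61 ± 0.22, 0.0333), as did Rps24 (-0.53 ± 0.19, 0.0329) and Rps28 (-0.35 ± 0.12, 0.0264). The count of falls depended on single arrays: 0 members were lower without CFUE replicate 2, CFUE replicate 3 or MkE replicate 1, and 1 without CFUE replicate 1, MkE replicate 2 or MkE replicate 4. With arrays centred on their medians 0 were lower as well, and on the mean of its probe sets, the dim one included, Rps6 differed by -0.18 and was not called.

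Genes of the mitochondrial ribosome, which make the proteins encoded in mitochondrial DNA, rose in the same comparison. Of 76 tested, 63 rose and 0 fell, with a median difference of 0.97. They numbered 57 after quantile normalization, 64 with arrays centred on their medians and 64 with the beta-actin ratio as a covariate, while the members called higher numbered 5, 3 and 2. Of 34 ribosome biogenesis genes 13 rose and 0 fell, among them Nolc1 (1.46 ± 0.23, adjusted p = 3.6e-06), Nhp2 (1.18 ± 0.21, 2.61e-05) and Polr1a (1.08 ± 0.25, 0.000763), which encodes the largest subunit of RNA polymerase I. The difference between these lists was not itself tested. ProE had 0 members higher and 2 lower than CFUE, where 3.53% of all genes were higher and 5.55% lower. They were Rps10 (-0.75 ± 0.24, 0.0477) and Rpl38 (-0.54 ± 0.18, 0.0432), and each of the 6 single-array omissions left 0. These groups share no Xist and Eif2s3y class, and with class as a block, which rests on the PreB pairs, 7 members were higher and 1 lower.

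GMP differed from LMPP in both directions, with 5 members higher and 12 lower, where 21.5% of all genes were higher and 15% lower. Rps15 was 7.91, 7.74 and 7.73 in GMP and 12.44, 12.54, 10.37, 12.12 and 12.02 in LMPP, a difference of -4.10 ± 0.42 (adjusted p = 5.53e-10). Rps19 was 10.80, 10.65 and 10.55 in GMP against 12.51, 12.40, 11.26, 12.12 and 12.10, a difference of -1.41 ± 0.22 (2.67e-06). Neither group overlapped the other for these genes, though LMPP replicate 3 was lower than the rest of its group. Rpl11 fell by 1.19 ± 0.22 on the log2 scale (4.33e-05). Members that rose were Rpl12 (1.04 ± 0.32, 0.0095), Rps25 (1.03 ± 0.32, 0.0103), Rps19bp1 (0.82 ± 0.21, 0.00168) and Rpl7l1. Rps18 was called higher on its brightest probe set (0.38), but its 4 sets over the filter level ran from -1.87 to 0.38, so no direction is given for it. The call of Rps25 ended without GMP replicate 1 and after quantile normalization.

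The mean beta-actin ratio was 6.41 in GMP and 3.03 in LMPP. With it as a covariate 14 members were higher and 8 lower, where 26.2% of all genes were higher and 13.4% lower in that fit, and the median member difference moved from -0.18 to 0.17. In that fit Rps15 differed by -2.56 (adjusted p = 2.58e-05) and Rps19 by -0.64 (0.0342), and Rpl11, at -0.41 (0.183), Rpl12 (0.0652) and Rps25 (0.645) were not called. Without LMPP replicate 3 the number of members lower was 19. Of the 34 biogenesis genes 15 rose and 0 fell from LMPP to GMP, and of the 76 mitochondrial ribosomal protein genes 32 rose and 4 fell.

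GM had 10 members higher and 0 lower than GMP, where 6.95% of all genes were higher and 4.71% lower, and the median member difference was 0.35. Rps15 was 11.66 and 11.52 in GM, a difference of 3.80 ± 0.52 (adjusted p = 1.33e-06). Rps19 was 12.40 and 12.10, a difference of 1.58 ± 0.27 (6.24e-05), and Rpl11 rose by 1.23 ± 0.27 (0.0017). These groups share no Xist and Eif2s3y class, and the mean beta-actin ratio was 3.25 in GM. With the ratio as a covariate 7 members were higher and 1 lower (7.16% and 10.1% of all genes), with Rps15 at 2.36 (0.000861), Rps19 at 0.86 (0.0222) and Rpl11 at 0.50 (0.216). With class as a block, which rests on the PreB pairs, 4 were higher and 5 lower, and Rps15 (1.32), Rps19 (0.50) and Rpl11 (0.43) were not called. Without GM replicate 1 the number higher was 4.

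CLP had 32 members lower and 1 higher than LMPP, where 27.4% of all genes were lower and 13.7% higher. The median member difference was -0.81, against -0.10 over all genes, and 16 members fell by over 2-fold. Rpl22l1 was 9.57 and 9.02 in CLP and 11.35, 11.47, 10.57, 11.36 and 11.41 in LMPP, a difference of -1.94 ± 0.20 (adjusted p = 1.27e-09). Rpl14 was 8.0 and 6.94 against 8.98, 8.78, 8.57, 10.50 and 10.42, which is -1.98 ± 0.36 (2.79e-05). Rps6 was 8.31 and 7.33 against 8.93, 8.93, 9.42, 10.05 and 10.04, which is -1.66 ± 0.24 (1.23e-06). The groups did not overlap for any of these. The other, dim probe set of Rps6 differed by 0.24 (means 3.40 and 3.16). Rps25 was higher (1.20 ± 0.37, 0.00845), through CLP replicate 2 at 10.25, and was not called without that array, which left 0 members higher.

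The fall from LMPP to CLP covered 19 of 25 large subunit members, 12 of 22 small subunit members, 14 of 19 other TOP messages and 59 of 76 mitochondrial ribosomal protein genes. After quantile normalization 24 members were lower and 2 higher and the median was -0.46, against -0.01 over all genes. With the beta-actin ratio, 5.22 in CLP, as a covariate 27 were lower and 1 higher (22.7% and 11.9% of all genes). Centring moved the median of all genes to -0.29, and 39 members were then lower.

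ETP had 3 members higher and 11 lower than LMPP, where 17.1% of all genes were higher and 14.9% lower. Rps15 was 8.52, 9.21 and 8.11 in ETP, a difference of -3.29 ± 0.42 (adjusted p = 2.17e-07). Rps19 fell by 1.18 ± 0.22 on the log2 scale (8.8e-05). Rps4l was called lower (0.0155), but its ETP arrays were below the filter level, so the size of that difference is not given. Rpl27a rose by 1.44 ± 0.50 (0.0254), Rps25 by 1.37 ± 0.32 (0.00118) and Rpl12 by 0.94 ± 0.32 (0.0218). The beta-actin ratio was 6.09 in ETP, and with it as a covariate 7 members were higher and 2 lower (17.4% and 10.7% of all genes). Rps15 was then at -1.89 (0.00134), and Rps19 (-0.48), Rpl27a (-0.39), Rps4l (0.50), Rps25 (0.66) and Rpl12 (0.92) were not called, Rpl27a and Rps4l having turned their direction. Calls also ended without 1 array: those of Rpl27a without any ETP array, that of Rps4l without ETP replicate 1, and that of Rpl12 without ETP replicate 3 or LMPP replicate 3. The number higher was 1 without ETP replicate 3 and 5 without LMPP replicate 5.

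PreB had 24 members higher and 0 lower than CLP, where 33.5% of all genes were higher and 25.4% lower, with a median of 0.55 against 0.06. The direction of Rpl3l, which passed the filter only through PreB, was fixed by the filter. Rpl7 was higher by 1.33 ± 0.17 (adjusted p = 1.97e-08). Rpl4 was 13.44, 13.39, 12.55 and 12.11 in PreB and 11.37 and 11.49 in CLP, a difference of 1.44 ± 0.33 (0.000296), and Rps19bp1 was higher by 1.67 ± 0.24 (4.52e-07). After quantile normalization 8 members were higher and 9 lower and the median was 0.17, against -0.08 over all genes. The balance of member calls thus depended on how arrays were scaled, while the member median kept its sign. The share of all genes called after quantile normalization is not given, so a shift particular to the members is not shown. With PreB replicates 3 and 4 alone, which share the Eif2s3y class with CLP, 13 were higher and 2 lower. Only 1 single-array omission on each side gave any member lower, CLP replicate 1 and PreB replicate 4, with 1 each. In the same comparison 63 of 76 mitochondrial ribosomal protein genes were higher, and 41 were after quantile normalization.

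IgM+SP had 1 member higher and 6 lower than PreB, where 7.10% of all genes were higher and 15.1% lower. Rps27l was 6.85 and 6.31 in IgM+SP and 8.64, 8.88, 7.22 and 7.61 in PreB, a difference of -1.51 ± 0.28 (adjusted p = 0.000106). Rplp0 was 10.46 and 10.38 against 12.99, 12.88, 10.89 and 11.08, which is -1.54 ± 0.35 (0.00134). Rpl3l was called lower (3.78e-05), but it passed the filter only through PreB, with a mean of 4.03 there, and so had to differ. Rpl27a rose by 1.98 ± 0.59 (0.0137), with arrays of the groups overlapping. Against PreB replicates 3 and 4 alone, which lie in the same class, 0 members were higher and 1 lower, and Rplp0, at -0.56, and Rpl27a, at 0.40, were not called. Against replicates 1 and 2 alone 2 were higher and 19 lower. The number lower was 13 without PreB replicate 3, 12 without PreB replicate 4 and 3 without IgM+SP replicate 2. The number higher was 2 without PreB replicate 4 and 0 without IgM+SP replicate 1, PreB replicate 1 or PreB replicate 2. The granulocyte genes S100a8 (11.64) and Ltf (9.74) were also high in IgM+SP, against 8.23 and 6.98 in PreB. Of 8 granulocyte and macrophage markers 7 were over the filter level in both groups, with summed intensities of 3560 to 7350 in IgM+SP and 134 to 5310 in PreB, and their part was not tested. Of 34 biogenesis genes 16 rose and 2 fell, such as Tsr1 (2.45 ± 0.33, 6.53e-07) and Gnl3 (1.98 ± 0.22, 2.12e-08), while 42 of 76 mitochondrial ribosomal protein genes fell.

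CD4 had 14 members higher and 3 lower than ETP, where 19.7% of all genes were higher and 17.9% lower. Rps15 was higher by 4.19 ± 0.52 (adjusted p = 2.85e-08) and Rps19 by 1.67 ± 0.27 (4.7e-06). Rpl41 was called on its brightest probe set (1.93 ± 0.35, 2.91e-05), at 13.60 and 13.51 in CD4 and 11.58, 11.76 and 11.54 in ETP. Rpl27a was lower (-2.05 ± 0.62, 0.00818), as were Rpl14 (-1.18 ± 0.39, 0.0139) and Rps25 (-1.13 ± 0.40, 0.0235). The calls of Rpl14 and Rps25 ended without CD4 replicate 2, that of Rpl27a ended without CD4 replicate 1, and that of Rps25 also ended without ETP replicate 2 or ETP replicate 3. Without CD4 replicate 2 the number lower was 1. The mean beta-actin ratio was 1.14 in CD4 and 6.09 in ETP, and with it as a covariate 3 members were higher and 4 lower, against 9.87% and 16.9% of all genes, with Rps15 at 1.93 (0.016) and Rps19 at 0.54 (0.247). Rpl27a (0.90) and Rps25 (0.02) turned their direction in that fit. These groups share no Xist and Eif2s3y class, and with class as a block, which rests on the PreB pairs, 1 member was higher and Rps15 (1.32) was not called. The 4 probe sets of Rpl41 over the filter level ran from -1.27 to 1.93, and it was not called on their mean (0.29), so no direction is given for that gene. Of 7 red cell markers 6 were over the filter level in CD4 and 5 in ETP, with summed intensities of 587 to 1350 and 1260 to 1340. Among them Alas2 was 8.42 in CD4 and 3.08 in ETP, Slc4a1 was 7.16 and 3.00, and Gata1 was 6.51 and 5.85. The others were lower in CD4: Car1 (3.80 and 6.78), Tfrc (7.69 and 10.02), Klf1 (4.61 and 5.27) and Epor (4.77 and 4.93). Of 5 B cell markers, those found of the list for IgM+SP, 5 were over the filter level in CD4 and 2 in ETP. Their summed intensities were 5330 to 5880 in CD4 and 1860 to 2640 in ETP. The part of the red cell and B cell markers was not tested.

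NKmature had 31 members higher and 2 lower than CLP, where 35.8% of all genes were higher and 23.0% lower, with a median of 0.86 against 0.17. Rpl27 was higher by 2.01 ± 0.26 (adjusted p = 3.25e-08). Rpl37 was 9.92 and 9.76 in NKmature and 8.23 and 7.82 in CLP, a difference of 1.82 ± 0.28 (1.33e-06). Rpl22l1 was 11.07 on both NKmature arrays, a difference of 1.77 ± 0.24 (8.33e-08). Lower were Rps9, whose probe sets disagreed, and Rps25 (-1.69 ± 0.44, 0.00127), which was not called without CLP replicate 2, leaving 1 member lower. After quantile normalization 15 members were higher and 3 lower, with a median of 0.34 against -0.07 over all genes. With the beta-actin ratio as a covariate 24 were higher and 2 lower (31.2% and 22.1% of all genes). The granulocyte genes S100a8 (12.13 against 4.43) and Ltf (9.57 against 3.72) were higher in NKmature than in CLP. Elane (6.24 against 4.58), Prtn3 (8.04 against 5.08) and Ctsg (6.42 against 5.40) were higher too. Mpo (7.99 against 10.09) and Csf1r (6.21 against 9.06) were lower. Of 8 granulocyte and macrophage markers 7 were over the filter level in NKmature and 6 in CLP, with summed intensities of 5950 to 6090 and 1720 to 1820, and their part was not tested. These groups share no Xist and Eif2s3y class. Comparisons that name the same group, as CLP is named in 3, share its arrays, and their calls are not independent.

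**Figure D5:**
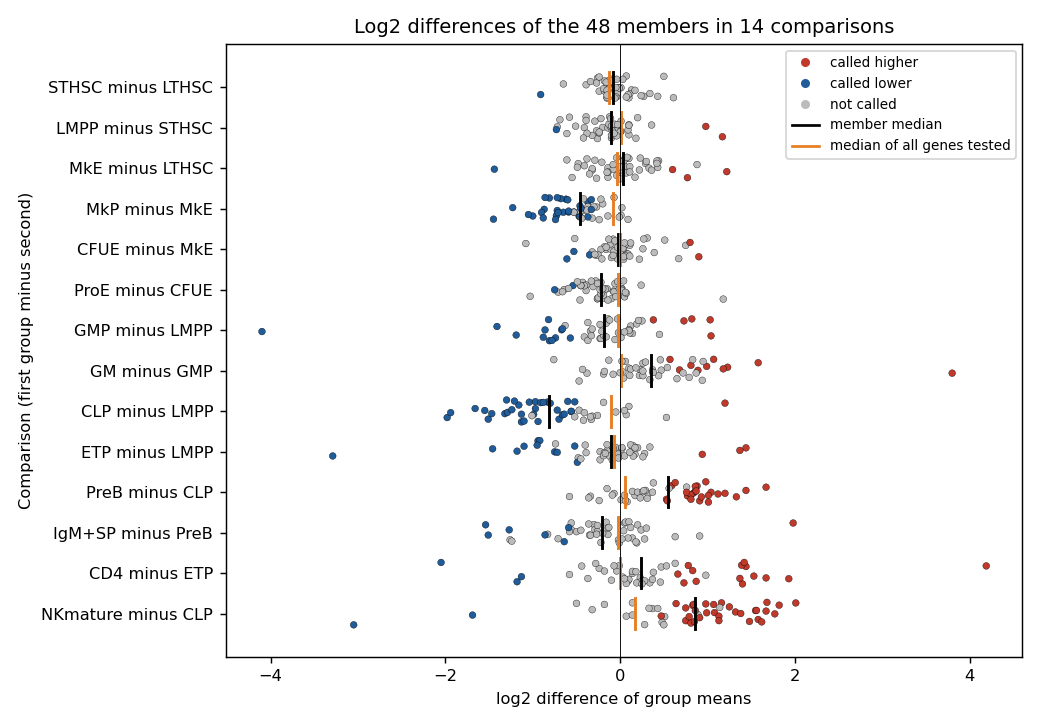
Log2 differences of group means for the 48 members in the 14 comparisons, 1 point per member, red where called higher and blue where called lower. Black bars are member medians and orange bars medians of all genes tested. Most members lie below 0 for MkP minus MkE and CLP minus LMPP and above 0 for PreB minus CLP and NKmature minus CLP.

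Over the 17 group means 35 members had a correlation over 0.5 with the median of the other members and 8 had one below 0. The share of all genes with such correlations was not taken. After Rps25, the least alike were Rpl27a (-0.31), Rps28 (-0.16), Rps20 (-0.15) and Rpl3l (-0.07). Among genes outside the family, Tbrg1 (0.96), Polr2e (0.95), Eif3k (0.93), Fbxl6 (0.93) and Babam2 (0.90) had the highest correlations with the member median. Each was lowest in CLP, as the member median was, which their choice by correlation with that median favours. Polr2e encodes a subunit shared by the nuclear RNA polymerases and Eif3k a subunit of the initiation factor that binds the small subunit. The median of 19 other TOP messages had a correlation of 0.93 with the member median, that of 76 mitochondrial ribosomal protein genes 0.65, that of 34 ribosome biogenesis genes 0.51 and that of 10 initiation factor genes 0.32. All these points share arrays and scale, so the correlations are descriptions.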

How the data were processed

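The table the authors deposited holds a linear intensity for each of 45101 probe sets on each of 47 arrays. Per the series design text these were calculated with RMA. Which program and version ran it is not given in the sources used here. Log2 of the deposited values was taken without a pseudocount. Genes were named from the platform annotation (34958 probe sets with 1 symbol, 932 with several, 9211 unlisted). The 50 members had 106 probe sets, and 24 members had several. The brightest over all arrays stood for a gene. Of 106, 40 were of the _x_at type and 31 of the _s_at or _a_at type, which can hybridise to related genes or pseudogenes.

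The 13949 genes that passed the filter were fitted together by limma 3.58.1 (R 4.3.3), with a mean for each of the 17 groups and all 47 arrays, which left 30 residual degrees of freedom. Tests were two-sided, with Benjamini-Hochberg adjustment within each comparison, with no minimum fold. The fit was tested on simulated data in which a small share of the genes was given known differences, with noise independent between arrays. Of differences of 1 on the log2 scale it called from 38% (STHSC minus LTHSC) to 78% (GMP minus LMPP). Of differences of 0.5 it called from 0% (CLP minus LMPP) to 20% (ETP minus LMPP). In the real comparisons many more genes were called and some arrays moved together, so these rates need not be those of the fits above. A member that is not called may still differ. The number of arrays limits the precision. Replicates correlated at 0.928 to 0.997 and no arrays were identical.

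The members and gene lists were chosen with earlier results of these data known. Named members come from a rule: the 8 widest ranges, up to 3 largest called rises and falls per comparison, fixed lists (P stalk, 5S particle, paralogs, X-linked, disease genes), the 3 brightest and 3 dimmest, the 5 least alike, and the 5 genes outside the family most alike. Examples from the other lists and Rps18 were picked with their values seen. Of the listed genes, Rpl3, Rpl5, Rpl10, Rpl36a, Rplp1 and others had no probe set of their own. Alternatives were quantile normalization, median centring, the mean of probe sets, no filter, a stricter filter (5.968), a trended robust spread, the replicate block, the Xist (over 7) and Eif2s3y (over 5) class, fits of the compared arrays alone and leaving out each array. The beta-actin covariate, fits without the arrays labelled ProB and fits on parts of PreB and LMPP were chosen after seeing the data. Promoters are from RefSeq (GRCm38.p6); protein sequences were not used here.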

Additional observations from a re-analysis of the deposited data

Results flagged for a closer look

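Levels on single arrays that stood apart from the rest of their group were looked for in LMPP, MkE and PreB, the groups with 4 or more arrays, for 39 members, which made 117 tests, and 16 were found. Chance marks about 1 in 20 of such tests where they are independent. All 16 lay on replicate 3 of LMPP or of MkE, and members on 1 array can move together. The count is therefore not weighed against that rate, and the share of all genes standing apart on these arrays is not given. All 12 in LMPP were low values of replicate 3 (log2 levels): Rps15 at 10.37 where the others had 12.02 to 12.54, Rps24 at 11.49 where the others had 12.35 to 12.54, Rps10 at 10.65 where the others had 11.63 to 12.02, Rpl38 at 12.15 where the others had 12.88 to 12.99, Rpl22l1 at 10.57 where the others had 11.35 to 11.47, Rplp2 at 12.35 where the others had 13.27 to 13.52, Rpl39 at 5.30 where the others had 5.98 to 6.10, Rps26 at 11.54 where the others had 12.31 to 12.37, Rps29 at 13.08 where the others had 13.48 to 13.62, Rpl35 at 11.97 where the others had 12.92 to 13.21, Rps14 at 12.29 where the others had 12.99 to 13.18, Rpsa at 13.07 where the others had 13.46 to 13.60. This array had both Xist and Eif2s3y. Its member median as a whole was low, at 11.83, and was 12.44 after quantile normalization.

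In MkE 4 low values all fell on replicate 3: Rps6 at 9.39 where the others had 9.84 to 9.90, Rps19bp1 at 6.97 where the others had 7.15 to 7.17, Rps24 at 12.11 where the others had 12.53 to 12.60, Rpl11 at 11.87 where the others had 12.12 to 12.14. In PreB, whose arrays form pairs, 0 were found.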

How the results depend on the processing

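Counts of members called higher or lower that moved by over 1.5 times, or to or from 0, are given by setting, and the cause was not tested. For these alternative fits, here and above, the share of all genes called is given only for some with the beta-actin ratio. So these counts alone do not show whether members moved more than other genes. With quantile normalization, 0 were lower in STHSC minus LTHSC, 1 was higher in LMPP minus STHSC, 6 were higher and 3 lower in MkE minus LTHSC, 9 lower in MkP minus MkE, 5 higher in CFUE minus MkE, 2 higher in CLP minus LMPP, 8 higher and 9 lower in PreB minus CLP, 5 lower in CD4 minus ETP and 15 higher in NKmature minus CLP, and the span of group medians was 0.81. With arrays centred on their medians, 0 were lower in LMPP minus STHSC, MkE minus LTHSC and CFUE minus MkE, 5 were higher in ETP minus LMPP, and the span was 1.74. Centring moved the median of all genes from -0.10 to -0.29 in CLP minus LMPP, from -0.08 to -0.20 in MkP minus MkE, from 0.06 to 0.33 in PreB minus CLP and from 0.17 to 0.41 in NKmature minus CLP. With the mean of all probe sets, 1 was higher in LMPP minus STHSC, 5 higher and 2 lower in MkE minus LTHSC, 4 higher in CFUE minus MkE, 4 lower in ProE minus CFUE, 19 lower in GMP minus LMPP, 17 higher in GM minus GMP, 6 higher in ETP minus LMPP, 1 lower in PreB minus CLP, 6 lower in CD4 minus ETP and 1 lower in NKmature minus CLP, and Rps9 turned to 0.09 there. Without the filter, 1 was higher in STHSC minus LTHSC, 2 lower in LMPP minus STHSC, 0 lower in MkE minus LTHSC and 1 lower in ProE minus CFUE. With a trended robust spread, 0 were lower in LMPP minus STHSC, 5 higher in MkE minus LTHSC, 4 higher in CFUE minus MkE and 5 higher in ETP minus LMPP.

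Replicate numbers did not pair the arrays: deviations from group means had a mean correlation of 0.01 between arrays of the same number and 0 between others, and 53 of 311 same-numbered pairs were over 0.1. With the replicate block, 0 were higher and 0 lower in LMPP minus STHSC, 5 higher and 0 lower in MkE minus LTHSC, 1 lower in CFUE minus MkE, 5 higher in ETP minus LMPP, and 2 higher and 12 lower in IgM+SP minus PreB. Of the arrays, 15 correlated best with one of their own number.

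With the Xist and Eif2s3y class as a block, 0 were higher and 0 lower in LMPP minus STHSC, 6 higher and 18 lower in MkE minus LTHSC, 4 higher in CFUE minus MkE, 7 higher and 1 lower in ProE minus CFUE, 4 higher and 5 lower in GM minus GMP, 13 higher and 2 lower in PreB minus CLP, 0 higher and 2 lower in IgM+SP minus PreB, and 1 higher in CD4 minus ETP. Rps10 (0.16) and Rpl38 (0.03) in ProE minus CFUE and Rpl27a (0.96) in CD4 minus ETP then turned their direction. Fitted on the compared arrays alone, 0 were lower in STHSC minus LTHSC, 0 higher and 0 lower in LMPP minus STHSC, 6 higher in CFUE minus MkE, 1 higher and 13 lower in ProE minus CFUE, 24 higher and 3 lower in GM minus GMP, 0 higher and 21 lower in CLP minus LMPP, 10 higher in PreB minus CLP, 0 higher and 0 lower in IgM+SP minus PreB and 1 lower in NKmature minus CLP. With the beta-actin ratio as a covariate, 1 was higher and 0 lower in LMPP minus STHSC, 0 lower in MkE minus LTHSC, 14 higher in GMP minus LMPP, 1 lower in GM minus GMP, 7 higher and 2 lower in ETP minus LMPP, 0 higher and 2 lower in IgM+SP minus PreB, and 3 higher in CD4 minus ETP. Rpl27a (-0.39) and Rps4l (0.50) in ETP minus LMPP and Rpl27a (0.90) and Rps25 (0.02) in CD4 minus ETP then turned. With PreB replicates 3 and 4 alone, 13 were higher and 2 lower in PreB minus CLP, and 0 higher and 1 lower in IgM+SP minus PreB. With replicates 1 and 2 alone, 2 were lower in PreB minus CLP, and 2 higher and 19 lower in IgM+SP minus PreB. The stricter filter and leaving out the arrays labelled ProB moved no count. LMPP replicates 1 and 2 alone moved none of the 6 counts compared, which do not cover every comparison that names LMPP.

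Leaving out single arrays gave counts of members lower of 0 to 0 in STHSC minus LTHSC, 0 to 1 in LMPP minus STHSC, 0 to 1 in MkE minus LTHSC, 13 to 28 in MkP minus MkE, 0 to 3 in CFUE minus MkE, 0 to 0 in ProE minus CFUE, 9 to 19 in GMP minus LMPP, 0 to 1 in PreB minus CLP, 3 to 13 in IgM+SP minus PreB, 1 to 3 in CD4 minus ETP and 1 to 2 in NKmature minus CLP. Counts higher were 0 to 2 in LMPP minus STHSC, 4 to 9 in GM minus GMP, 0 to 1 in CLP minus LMPP, 1 to 5 in ETP minus LMPP and 0 to 2 in IgM+SP minus PreB. A group left with 1 array was assumed to vary like the others. Over all settings the named members' differences kept direction and call in 834 results, kept direction without the call in 139 and turned in 8.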
